A study of Arabidopsis thaliana with 18 samples.

Results

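Nuclear genes for the photosynthetic machinery of the chloroplast were followed across WT and *pad2-1* seedlings under the control condition, methyl viologen (MV) and phosphate limitation (P-lim). They were chosen by gene symbol, as probe sets with 1 annotated gene whose symbol begins with a prefix used for photosystem, antenna, electron transport, Rubisco small subunit, NDH complex, ferredoxin, ATP synthase or assembly factor genes. This found 19 of the 13513 probe sets with 1 gene, out of 22746 tested in all. By what they are known to encode, 17 of the 19 act in photosynthesis. The other 2 share only the letters: *FD* encodes a bZIP factor of flowering and *FDH* the formate dehydrogenase of mitochondria. The 17 comprise 2 photosystem I subunits (*PSAE-1* and *PSAN*), 1 photosystem I assembly factor (*HCF101*), 11 photosystem II genes, 1 gene of cyclic electron flow (*PGRL1B*) and the γ subunits of the ATP synthase (*ATPC1* and *ATPC2*). No gene of the photosystem I antenna, the cytochrome b6f complex, the Rubisco small subunit or the NDH complex was found by the rule, and those genes were not analysed here. The photosystem II antenna was covered only by the 3 *LHCB4* genes of the protein CP29. Of the other photosystem II subunits only *PSBW* and *PSBY* were found.

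Photosystem II splits water and feeds electrons through the cytochrome b6f complex to photosystem I, which reduces ferredoxin. The proton gradient built on the way drives the ATP synthase, and cyclic flow returns electrons from ferredoxin to the chain. MV is a herbicide that accepts electrons at photosystem I and hands them to oxygen, which yields superoxide. Photosynthesis proteins are encoded partly in the plastid and partly in the nucleus, and nuclear transcripts such as those of the *LHCB* antenna are known to respond to signals from the chloroplast.

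The study asked how a low glutathione content and mild stress act together. The aerial parts of 18-day-old plants were taken, with 3 arrays for each of 6 groups and a single biological replicate on each array. The groups were WT (Col-0) and *pad2-1*, a mutant of *GSH1* in the same background, each on the control medium, with MV, or on P-lim medium. All plants shared a day of 16 h light and 8 h dark at 22°C and Murashige and Skoog medium with 1% sucrose. The *GSH1* enzyme makes the first step of glutathione synthesis, *pad2-1* is 1 allele, and 1 mutant line stands for it. The MV concentration is 0.05 M in the sample labels, whereas the methods give the same figure in µM. The P-lim medium held 20% of the usual phosphate. For stressed WT samples the description field names unmodified medium, so groups were taken from titles and treatment labels. RNA came from whole shoots, in which fewer cells of a type and less RNA per cell cannot be told apart.

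Values are log2 signals from RMA, on which 1 unit is a doubling. Arrays of a group correlated at r = 0.9964 to 0.9984 across probe sets. The lower quartile of an array lay at 3.80 to 3.91 and its median at 5.89 to 5.97, and the highest value of any probe set was 13.86. Of 39 tissue markers, 3 were read, all found by symbol among the probe sets with 1 gene. The others were not looked up under another name. The leaf gene *RCA* lay at 13.16 to 13.29, the root hair gene *EXPA7* at 3.94 to 4.40, near the lower quartile, and the phloem gene *OPS* at 5.16 to 5.78. A probe set was called when its adjusted p in limma, corrected over all 22746 probe sets, was under 0.05. Within a genotype the MV and P-lim comparisons share the control arrays, and each control group also enters the comparison of genotypes.

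In limma, 7 of the 17 photosynthesis genes were called in at least 1 of 11 comparisons, as were 31.3% of all probe sets, and 10 were called in none, although 10 of the 110 tests of those genes had an unadjusted p under 0.05. The largest change was 0.70 on the log2 scale, for *LHCB4.3* under MV. The 2 antenna genes *LHCB4.2* and *LHCB4.3* rose under MV in both genotypes, and *LHCB4.3* also rose under P-lim in both. Among the assembly factors of photosystem II, *LPA19* fell under P-lim in both genotypes, and *LPA1* and *PAM68* fell under MV in WT. Under MV in WT, 6 of the 19 genes and 4 of the 17 were called, against 13.5% of all probe sets. Under P-lim in WT, 3 of 19 and 2 of 17 were called, against 9.21%. Under MV in *pad2-1*, 4 of 19 and 2 of 17 were called, against 8.01%, and under P-lim in *pad2-1*, 3 of 19 and 2 of 17, against 11.8%. These are counts of a few genes, and no difference from the array is read from them. When a fit was limited to the arrays of 1 comparison, the calls of *LPA1*, *PAM68* and *HCF101*, those of *LPA66*, and that of *LHCB4.3* between the genotypes were lost (adjusted p = 0.0661 to 0.220), whereas the calls of *LHCB4.2*, *LHCB4.3* and *LPA19* against the control held.

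The median size of change of the 17 genes, without regard to sign, was 0.06 under MV in WT and 0.05 in *pad2-1*, against 0.08 for all probe sets in each. Under P-lim it was 0.07 in WT, against 0.08, and 0.09 in *pad2-1*, against 0.08. With its sign, the median change of the 19 genes was -0.03 under MV in WT, where that of all probe sets was 0.02. Under P-lim in WT the medians were -0.01 and 0.01. In *pad2-1* they were -0.02 and 0.00 under MV, and -0.04 and 0.02 under P-lim. Leaving out 1 array turned the sign of the first 3 of these medians of the 19 genes, which ran from -0.0361 to 0.0237 for MV in WT, -0.0201 to 0.00642 for P-lim in WT and -0.0309 to 0.0192 for MV in *pad2-1*. WT MV replicate 2, without which the first was 0.0237, held the lowest value of its group for 12 of the 17 photosynthesis genes.

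**Figure D1:**
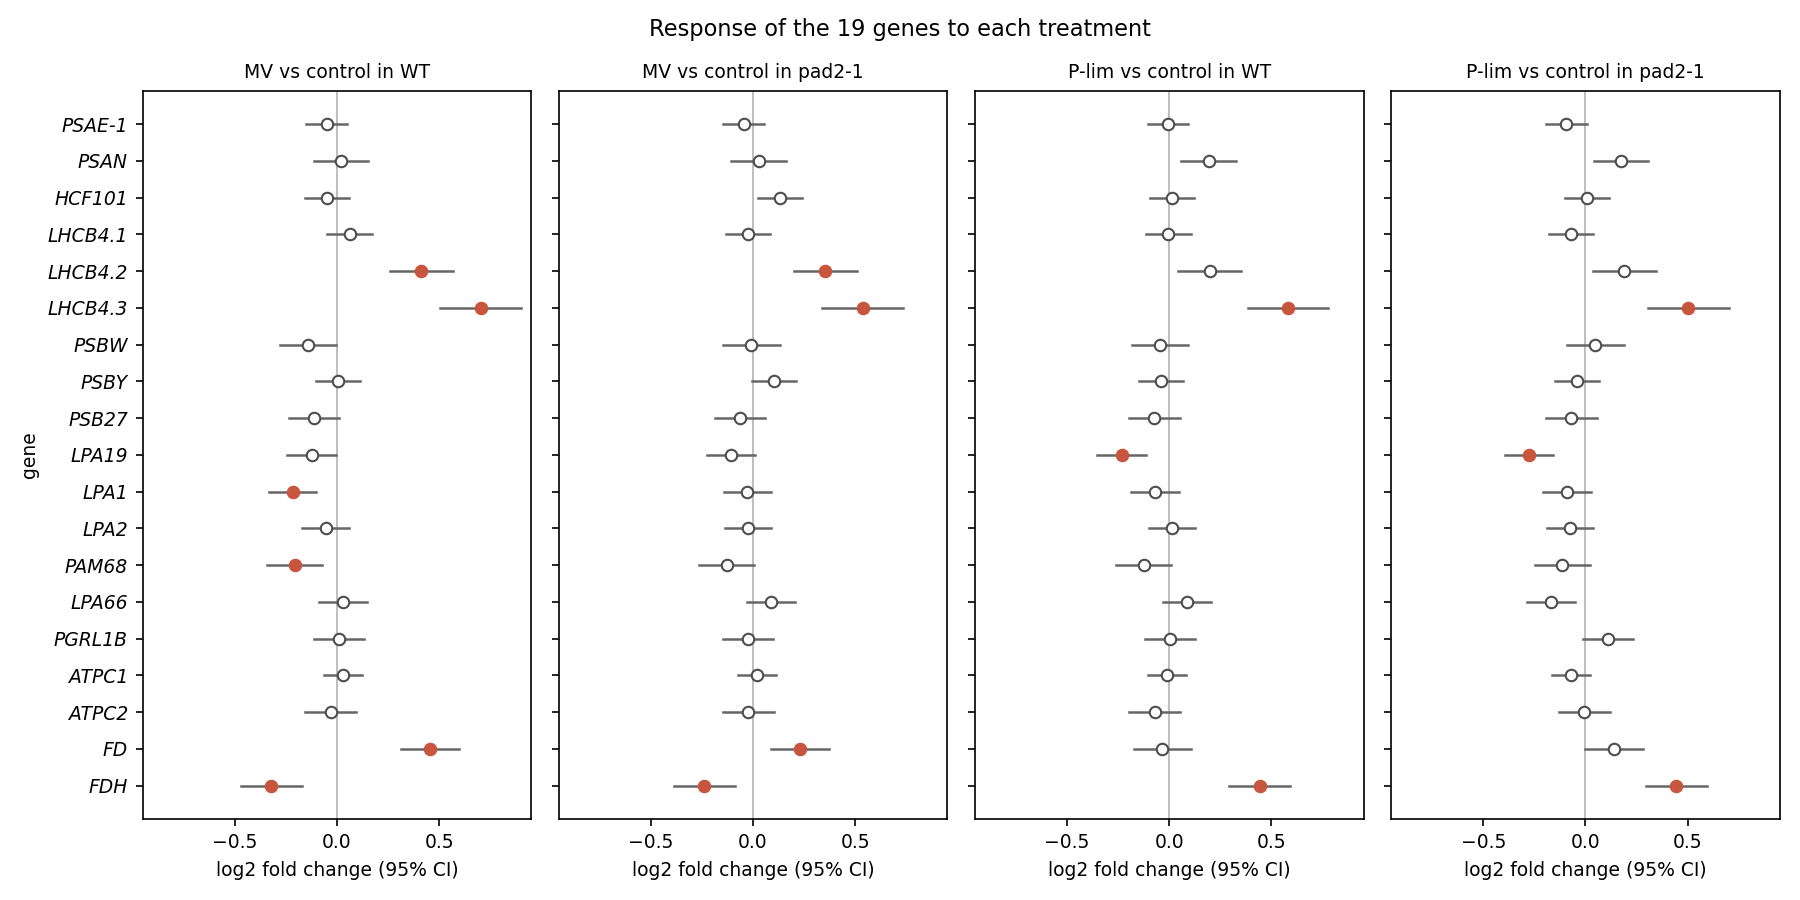
Log2 fold change of each of the 19 genes (rows) under MV and P-lim against the control condition, in WT and *pad2-1* (panels), with 95% confidence intervals from limma and 3 arrays a group. Filled points have an adjusted p under 0.05. *LHCB4.3* lies to the right in all 4 panels, at 0.50 to 0.70, and *PSAE-1* lies near 0 in each.

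The 2 subunit genes found for photosystem I, where MV takes its electrons, gave no call. Its assembly factor *HCF101* was called only between the genotypes under MV. *PSAE-1* (AT4G28750) encodes a subunit on the stromal side that helps ferredoxin to dock. In WT its values were 12.72, 12.68 and 12.72 under the control condition, 12.60, 12.66 and 12.70 under MV, and 12.69, 12.69 and 12.71 under P-lim. In *pad2-1* they were 12.68, 12.63 and 12.64 under the control condition, 12.66, 12.61 and 12.54 under MV, and 12.56, 12.53 and 12.59 under P-lim. The 3 arrays of *pad2-1* under P-lim lay below all WT arrays and below the *pad2-1* control arrays, and the treated and control arrays of WT overlapped. The change under MV was -0.05 in WT (95% CI -0.15 to 0.05) and -0.05 in *pad2-1* (95% CI -0.14 to 0.05). Under P-lim it was -0.01 (95% CI -0.11 to 0.09) in WT and -0.09 (95% CI -0.19 to 0.01) in *pad2-1*. A change of *PSAE-1* by more than 0.15 under MV in WT in either direction lay outside that interval.

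*PSAN* (AT5G64040) encodes a subunit on the lumen side that takes part in the exchange with plastocyanin. In WT its values were 12.44, 12.37 and 12.41 under the control condition, 12.53, 12.32 and 12.44 under MV, and 12.61, 12.58 and 12.61 under P-lim. In *pad2-1* they were 12.25, 12.32 and 12.27 under the control condition, 12.43, 12.31 and 12.18 under MV, and 12.42, 12.50 and 12.44 under P-lim. In both genotypes the P-lim arrays lay above all control arrays, whereas the MV arrays spread across them. The P-lim difference was 0.19 in WT (SE 0.06, adjusted p = 0.0665 in limma) and 0.17 in *pad2-1* (SE 0.06, adjusted p = 0.0892), both short of the threshold. Under MV the difference was 0.02 in WT (95% CI -0.11 to 0.15) and 0.03 in *pad2-1* (95% CI -0.11 to 0.16).

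The 2 photosystem I subunit genes gave 22 tests over the 11 comparisons, of which 0 were called and 6 had an unadjusted p under 0.05. The call of *PSAN* under P-lim depended on the settings of the test. In WT it was called with a fit limited to the 2 groups compared (adjusted p = 0.0305), with the dimmer probe sets left out (0.0307), with the arrays shifted to one median (0.0386) and with a variance prior that follows the signal (0.0131). In *pad2-1* it was called with the dimmer probe sets left out (0.0448) and with that prior (0.0225).

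*HCF101* (AT3G24430) encodes a scaffold protein that delivers iron-sulfur clusters to photosystem I. Its values in WT were 9.81, 9.73 and 9.82 under the control condition, 9.75, 9.66 and 9.80 under MV, and 9.80, 9.75 and 9.84 under P-lim. In *pad2-1* they were 9.83, 9.80 and 9.75 under the control condition, 9.92, 9.89 and 9.96 under MV, and 9.82, 9.83 and 9.75 under P-lim. The 3 arrays of *pad2-1* under MV were higher than all other arrays. Neither treatment gave a call against the control in either genotype, and the nearest was MV in *pad2-1* (0.13, adjusted p = 0.140).

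**Figure D2:**
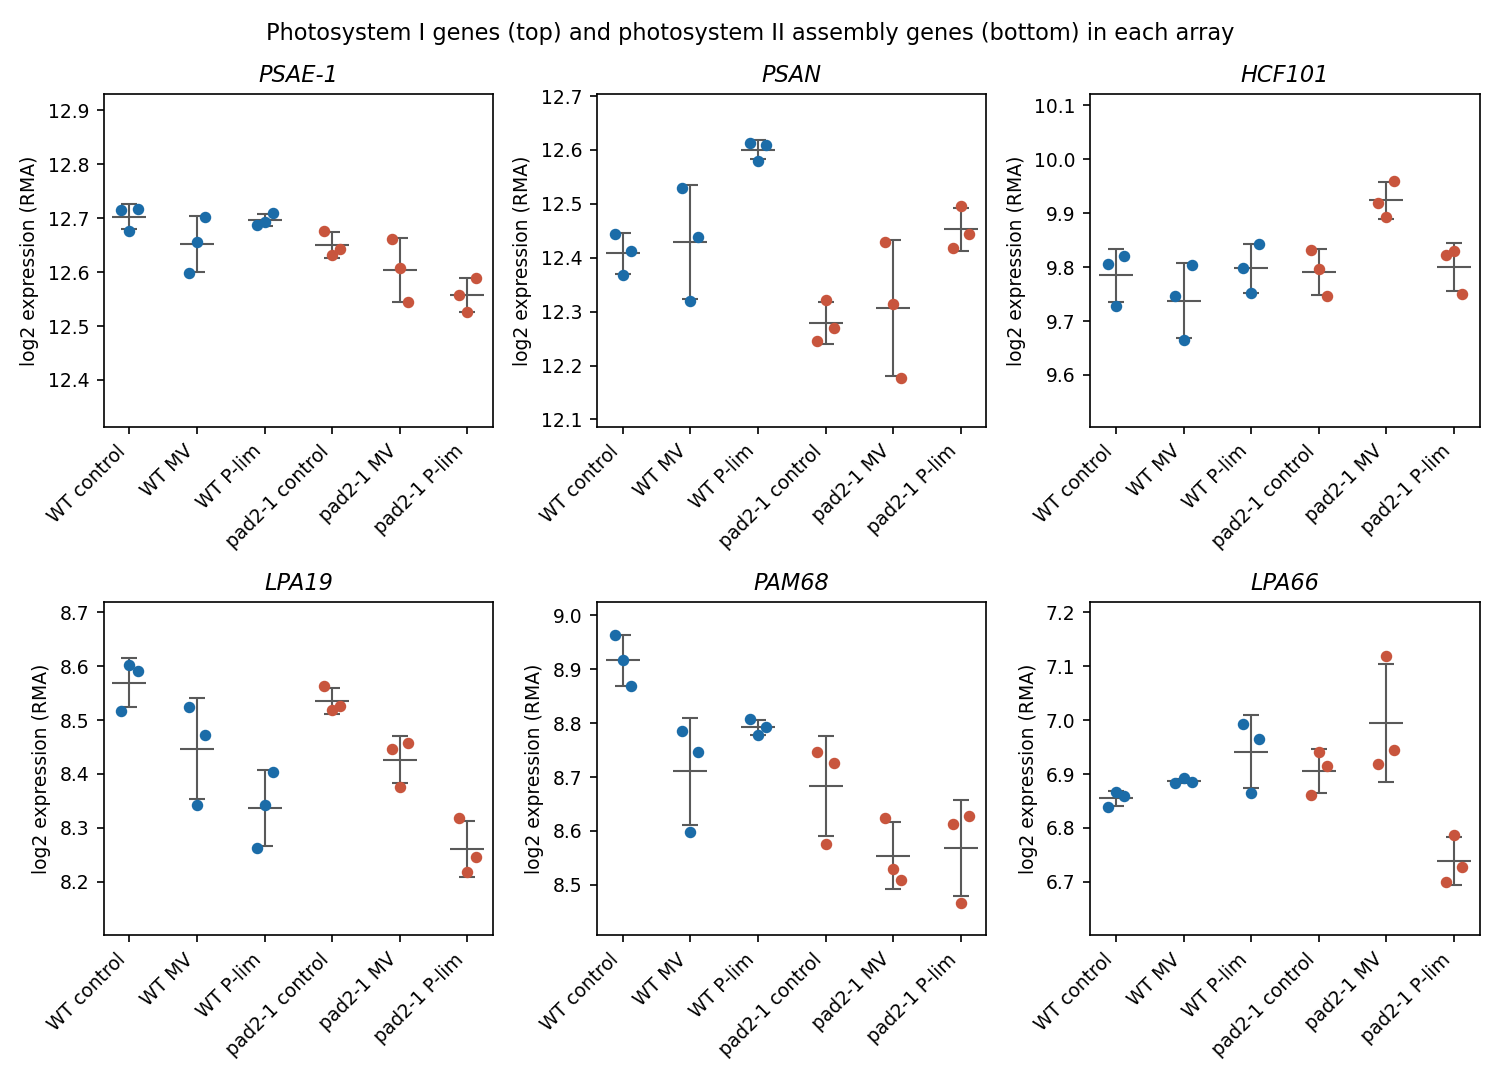
Log2 signal (RMA) of *PSAE-1*, *PSAN* and *HCF101* of photosystem I (top) and *LPA19*, *PAM68* and *LPA66* of photosystem II assembly (bottom) in each array, with WT in blue and *pad2-1* in red. Points are arrays, and bars give the mean and SD of 3 arrays. The axes do not start at 0. *PSAN* is highest in WT under P-lim, at 12.58 to 12.61, and *LPA19* lowest in *pad2-1* under P-lim, at 8.22 to 8.32.

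Among the 17 photosynthesis genes, the clearest changes were in genes for the minor antenna protein CP29. This protein links the outer light-harvesting complexes to the photosystem II core and is encoded by 3 nuclear genes. No other antenna gene was found by the rule, so CP29 was not compared with the rest of the antenna. *LHCB4.3* (AT2G40100) rose under both treatments in both genotypes, *LHCB4.2* (AT3G08940) rose under MV in both, and *LHCB4.1* (AT5G01530) was not called in any comparison. In WT, *LHCB4.3* read 8.85, 8.88 and 9.09 under the control condition, 9.49, 9.80 and 9.64 under MV, and 9.57, 9.49 and 9.51 under P-lim. In *pad2-1* it read 9.08, 9.32 and 9.46 under the control condition, 9.89, 9.87 and 9.71 under MV, and 9.89, 9.72 and 9.76 under P-lim. Every treated array was above every control array of its genotype.

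Under MV, *LHCB4.3* rose 1.63-fold in WT (log2 0.70, SE 0.09, 95% CI 0.51 to 0.90, adjusted p = 4.51e-05 in limma) and 1.45-fold in *pad2-1* (log2 0.54, 95% CI 0.34 to 0.73, adjusted p = 0.00111). Under P-lim it rose by 0.58 on the log2 scale in WT (95% CI 0.38 to 0.78, adjusted p = 0.000414) and 1.42-fold in *pad2-1* (log2 0.50, 95% CI 0.31 to 0.70, adjusted p = 0.00135). The genotypes did not differ detectably in these responses, with an interaction of -0.17 under MV (95% CI -0.45 to 0.11) and -0.08 under P-lim (95% CI -0.36 to 0.20). MV and P-lim differed by 0.12 in WT (95% CI -0.08 to 0.32) and by 0.03 in *pad2-1* (95% CI -0.17 to 0.23). The 4 calls of *LHCB4.3* against the control held when any 1 array was left out.

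*LHCB4.2* in WT read 10.77, 10.75 and 10.63 under the control condition, 11.25, 11.07 and 11.07 under MV, and 10.86, 10.97 and 10.90 under P-lim. In *pad2-1* it read 10.63, 10.66 and 10.66 under the control condition, 11.12, 10.89 and 10.99 under MV, and 10.69, 10.91 and 10.91 under P-lim. All treated arrays were above the control arrays of their genotype, and those under MV were the highest in WT. The rise under MV was 1.33-fold in WT (log2 0.41, 95% CI 0.26 to 0.57, adjusted p = 0.000716 in limma) and 1.28-fold in *pad2-1* (log2 0.35, 95% CI 0.20 to 0.51, adjusted p = 0.00433), and it held without any 1 array. Under P-lim the differences of 0.20 in WT (adjusted p = 0.108) and 0.19 in *pad2-1* (adjusted p = 0.106) did not pass. With a variance prior that follows the signal they were called (adjusted p = 0.0429 and 0.0432), and in *pad2-1* also without *pad2-1* P-lim replicate 1 (0.0292).

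*LHCB4.1* ranged from 12.79 to 13.03 over all 18 arrays. In WT it read 12.89, 12.88 and 12.89 under the control condition and 13.03, 12.89 and 12.93 under MV, and the groups of arrays overlapped. Its 4 changes against the control were 0.06 and -0.02 under MV and 0.00 and -0.07 under P-lim, for WT and *pad2-1* respectively, within 95% CIs that together span -0.18 to 0.17. Its mean signal lay at the 99.9th percentile of all probe sets, and the part of this high signal in its small change was not tested.

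Whether genes for the same or a related protein changed by different amounts was tested array by array, for pairs chosen after the values had been seen. The exact permutation test (two-sided) exchanged treated and control arrays within each genotype, with 6 against 6 arrays, 400 arrangements, a smallest possible p of 0.005, and Benjamini-Hochberg adjustment over 10 tests. Under MV, *LHCB4.3* changed by 0.60 more than *LHCB4.1* (0.64 in WT and 0.56 in *pad2-1*, exact permutation p = 0.005, adjusted p = 0.00833). *LHCB4.2* changed by 0.36 more than *LHCB4.1* (same p). The gap between *LHCB4.3* and *LHCB4.2* under MV was 0.24 and did not pass after adjustment (exact permutation p = 0.05, adjusted p = 0.0714). Under P-lim, *LHCB4.3* changed by 0.58 more than *LHCB4.1* and by 0.35 more than *LHCB4.2*, and *LHCB4.2* by 0.23 more than *LHCB4.1* (each exact permutation p = 0.005, adjusted p = 0.00833). None of these calls changed when any 1 array was left out. The part of unequal signal height in these gaps was not tested.

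**Figure D3:**
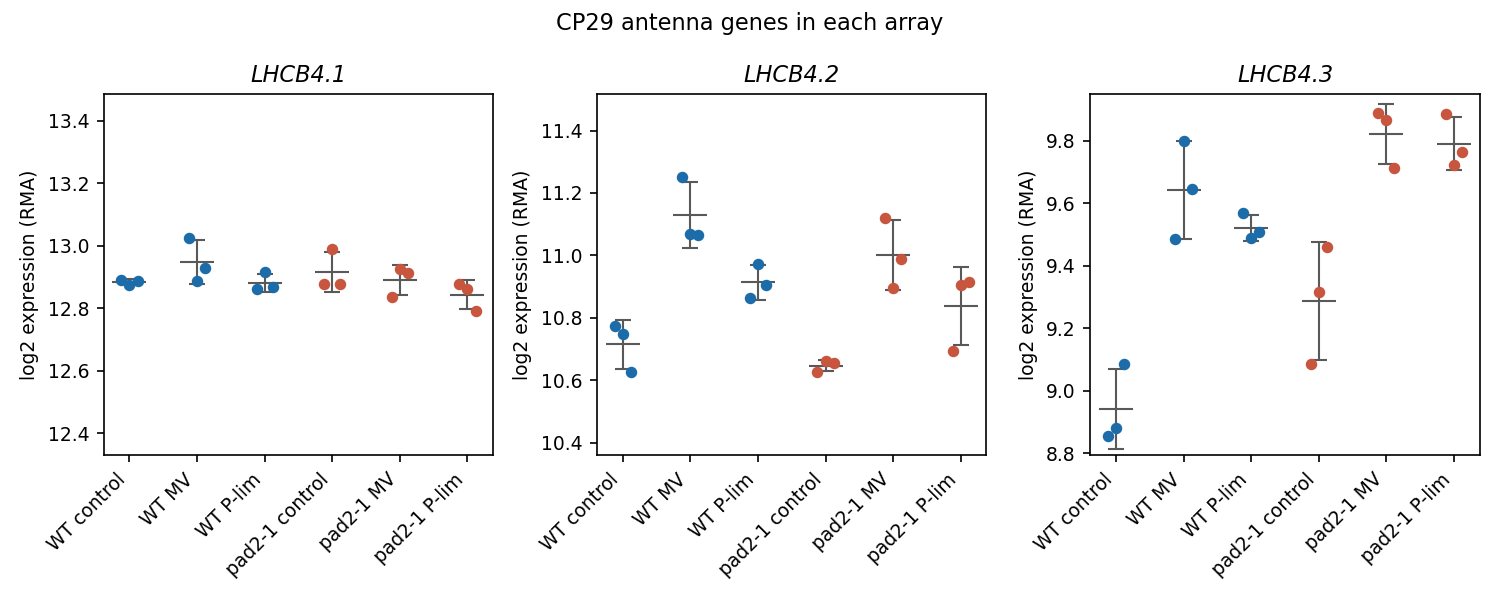
Log2 signal (RMA) of the CP29 genes *LHCB4.1*, *LHCB4.2* and *LHCB4.3* in each array of the 6 groups, with WT in blue and *pad2-1* in red. Points are arrays, and bars give the mean and SD of 3 arrays. The 3 panels span equal ranges of log2 units and do not start at 0. *LHCB4.3* moves from 8.85 to 9.09 in WT under the control condition to 9.49 to 9.80 under MV, while *LHCB4.1* stays between 12.79 and 13.03.

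The 2 small subunits of photosystem II that the rule found, *PSBW* (AT2G30570) and *PSBY* (AT1G67740), were not called in any comparison. *PSBW*, whose protein is known to help hold the antenna to the core, ranged from 11.95 to 12.27 over the 18 arrays. In WT it read 12.18, 12.27 and 12.18 under the control condition and 12.07, 11.99 and 12.15 under MV, without overlap, for a difference of -0.14 (adjusted p = 0.189 in limma). The *pad2-1* control arrays also lay below all WT control arrays, for a difference of -0.15 (adjusted p = 0.243 in limma). *PSBY* ranged from 12.22 to 12.48, and its largest difference from a control group was 0.10 under MV in *pad2-1* (adjusted p = 0.280).

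Of the 6 assembly and repair factors of photosystem II, 4 were called in at least 1 comparison, a count of few genes beside the 31.3% of all probe sets, and those called against the control were lower under treatment. *PSB27* (AT1G03600) and *LPA19* (AT1G05385) encode related lumen proteins of the Psb27 family, the former used in the repair of photosystem II and the latter in the trimming of the D1 protein. *LPA19* fell under P-lim. In WT it read 8.52, 8.60 and 8.59 under the control condition and 8.26, 8.34 and 8.40 under P-lim, and in *pad2-1* 8.56, 8.52 and 8.53 under the control condition and 8.32, 8.22 and 8.25 under P-lim. The groups did not overlap in either genotype. The change was -0.23 in WT (SE 0.06, adjusted p = 0.0118 in limma) and -0.28 in *pad2-1* (SE 0.06, adjusted p = 0.00294). The call in *pad2-1* held without any 1 array. That in WT was lost without WT control replicate 2 (adjusted p = 0.0579) or 3 (0.0539) or WT P-lim replicate 1 (0.0752).

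Under MV, *LPA19* changed by -0.12 in WT (adjusted p = 0.183) and by -0.11 in *pad2-1* (adjusted p = 0.297). *PSB27* ranged from 11.91 to 12.19 and was not called, with changes between -0.06 and -0.11 in the 4 comparisons with the control. Under P-lim the change of *LPA19* was 0.18 lower than that of *PSB27* (-0.18, exact permutation p = 0.005, adjusted p = 0.00833, 6 against 6 arrays), and under MV the gap was -0.03 (exact permutation p = 0.41, adjusted p = 0.456). The mean signal of *PSB27* lay at the 99.5th percentile of all probe sets and that of *LPA19* at the 85.9th. The part of this difference in the gap was not tested.

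*LPA1* (AT1G02910) encodes a membrane protein that helps newly made D1 into photosystem II. In WT it read 8.77, 8.75 and 8.78 under the control condition and 8.56, 8.42 and 8.67 under MV, with all MV arrays lower, and fell by 0.22 on the log2 scale (SE 0.06, adjusted p = 0.0129 in limma). The call was lost without WT MV replicate 2 (adjusted p = 0.0716) or WT control replicate 3 (0.05005). In *pad2-1* it read 8.67, 8.64 and 8.65 under the control condition and 8.57, 8.67 and 8.64 under MV, which overlapped, for a difference of -0.03 (95% CI -0.14 to 0.09). The interaction of genotype and MV was 0.19 (95% CI 0.02 to 0.35, adjusted p = 0.314), so a difference between the genotypes in this response did not pass the test.

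*PAM68* (AT4G19100) encodes a thylakoid protein that acts early in the assembly of photosystem II. In WT it read 8.96, 8.92 and 8.87 under the control condition, 8.79, 8.60 and 8.75 under MV, and 8.81, 8.78 and 8.79 under P-lim. Both treated groups lay below the control arrays. It fell by 0.21 under MV (SE 0.06, adjusted p = 0.0387 in limma), a call lost without WT control replicate 1 (adjusted p = 0.140), 2 (0.0977) or 3 (0.0572) or WT MV replicate 2 (0.171) or 3 (0.0552). The P-lim difference in WT was -0.12 (adjusted p = 0.278). In *pad2-1* the differences from the control were -0.13 under MV (adjusted p = 0.269) and -0.11 under P-lim (adjusted p = 0.301).

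*LPA2* (AT5G51545), also needed for the assembly of photosystem II, ranged from 9.21 to 9.42 and was not called in any comparison. *LPA66* (AT5G48910) encodes a pentatricopeptide protein that edits a plastid transcript of photosystem II. Its values in WT were 6.84, 6.87 and 6.86 under the control condition, 6.88, 6.89 and 6.88 under MV, and 6.99, 6.86 and 6.97 under P-lim. In *pad2-1* they were 6.86, 6.94 and 6.91 under the control condition, 6.92, 7.12 and 6.94 under MV, and 6.70, 6.79 and 6.73 under P-lim. The 3 arrays of *pad2-1* under P-lim were lower than all other arrays. Against the *pad2-1* control the difference was -0.17 (adjusted p = 0.0618 in limma), which was called with the dimmer probe sets left out (0.0281) and with the arrays shifted to one median (0.0369).

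*PGRL1B* (AT4G11960), 1 of the genes for a protein of cyclic electron flow around photosystem I, ranged from 8.44 to 8.73 and was not called. In *pad2-1* it read 8.62, 8.57 and 8.57 under the control condition and 8.73, 8.69 and 8.68 under P-lim, without overlap, for a difference of 0.11 (adjusted p = 0.258 in limma). *ATPC1* (AT4G04640), the γ subunit of the ATP synthase used in photosynthesis, ranged from 12.48 to 12.65. Its paralog *ATPC2* (AT1G15700) ranged from 5.64 to 5.86, close to the array median. Neither was called in any comparison, and the gap between their changes did not pass under MV (0.05, exact permutation p = 0.175, adjusted p = 0.219, 6 against 6 arrays) or P-lim (0.00, exact permutation p = 0.915). The 95% CIs of *ATPC1* against the control together span -0.17 to 0.12, and its SE of 0.0442 was the smallest of the 19 genes.

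The 17 photosynthesis genes differed in how far their group means were apart. The range of the 6 group means was 0.08 for *ATPC2*, 0.09 for *LPA2* and 0.10 for *ATPC1*, and 0.15 for *PSAE-1* and 0.32 for *PSAN*. It reached 0.48 for *LHCB4.2* and 0.88 for *LHCB4.3*. The residual SD between arrays was 0.03 to 0.13, under the median of all probe sets (0.0914) for 18 of all 19 genes, with *LHCB4.3* (0.126) as the exception. The mean signals of *PSAE-1*, *PSAN*, *LHCB4.1*, *PSBW*, *PSBY*, *PSB27* and *ATPC1* were in the top 1% of the array, and 0 of these 7 genes were called in limma in any comparison, with 9 of their 77 tests at an unadjusted p under 0.05. Of the 228 probe sets in that top 1%, 12.3% were called under MV and 9.21% under P-lim in WT, 6.58% and 14% in *pad2-1*, and 3.95% to 6.58% between the genotypes. Their median size of change under MV in WT was 0.0567, against 0.0830 for all probe sets. The part of signal height in the absence of calls was not tested.

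Between the genotypes, *LHCB4.3* was higher and *PAM68* lower in *pad2-1* under the control condition. These were 2 of the 19 genes, against 6.35% of all probe sets called. *LHCB4.3* differed by 0.35 (SE 0.09, 95% CI 0.15 to 0.54, adjusted p = 0.0328 in limma), although 1 array of *pad2-1* at 9.08 was below the highest WT array at 9.09. The call was lost without WT control replicate 1 (adjusted p = 0.140) or 2 (0.132) or *pad2-1* control replicate 2 (0.108) or 3 (0.170). The difference was 0.18 with MV (adjusted p = 0.325) and 0.27 on P-lim medium (adjusted p = 0.121), the latter called in a fit limited to those groups (0.0461).

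*PAM68* in *pad2-1* read 8.75, 8.58 and 8.73 under the control condition, 8.62, 8.53 and 8.51 under MV, and 8.61, 8.47 and 8.63 under P-lim. It was below WT by 0.23 under the control condition (-0.23, SE 0.06, adjusted p = 0.0341 in limma), by 0.16 with MV (-0.16, adjusted p = 0.187) and by 0.22 on P-lim medium (-0.22, adjusted p = 0.0494). The *pad2-1* and WT arrays did not overlap under the control condition or P-lim and overlapped under MV. The control call was lost without any 1 of its 6 arrays but *pad2-1* control replicate 1, with adjusted p up to 0.180 (without *pad2-1* control replicate 2). The P-lim call was lost without any 1 of its 6 arrays, with adjusted p of 0.0631 to 0.225.

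Under MV, 1 of the 19 genes differed between the genotypes, against 5.16% of all probe sets. This was *HCF101*, which was 0.19 higher in *pad2-1* (SE 0.05, 95% CI 0.08 to 0.29, adjusted p = 0.0427 in limma). The call was lost without any 1 of the 6 arrays but WT MV replicate 3, with adjusted p of 0.0726 to 0.150. Under P-lim, 2 of the 19 differed, against 5.31%. Beside *PAM68* this was *LPA66*, which was 0.20 lower in *pad2-1* (-0.20, SE 0.06, adjusted p = 0.0412), a call lost without any 1 of the 6 arrays but WT P-lim replicate 2, with adjusted p of 0.0580 to 0.152.

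The photosystem I subunits were lower in *pad2-1* in each condition by amounts that did not pass the test. *PSAN* differed by -0.13 under the control condition (adjusted p = 0.307 in limma), -0.12 under MV (adjusted p = 0.323) and -0.15 under P-lim (adjusted p = 0.227). *PSAE-1* differed by -0.05, -0.05 and -0.14, and its arrays of the 2 genotypes did not overlap under P-lim (adjusted p = 0.109). With the dimmer probe sets left out the last was called (adjusted p = 0.0474), as it was with a variance prior that follows the signal (0.0229).

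**Figure D4:**
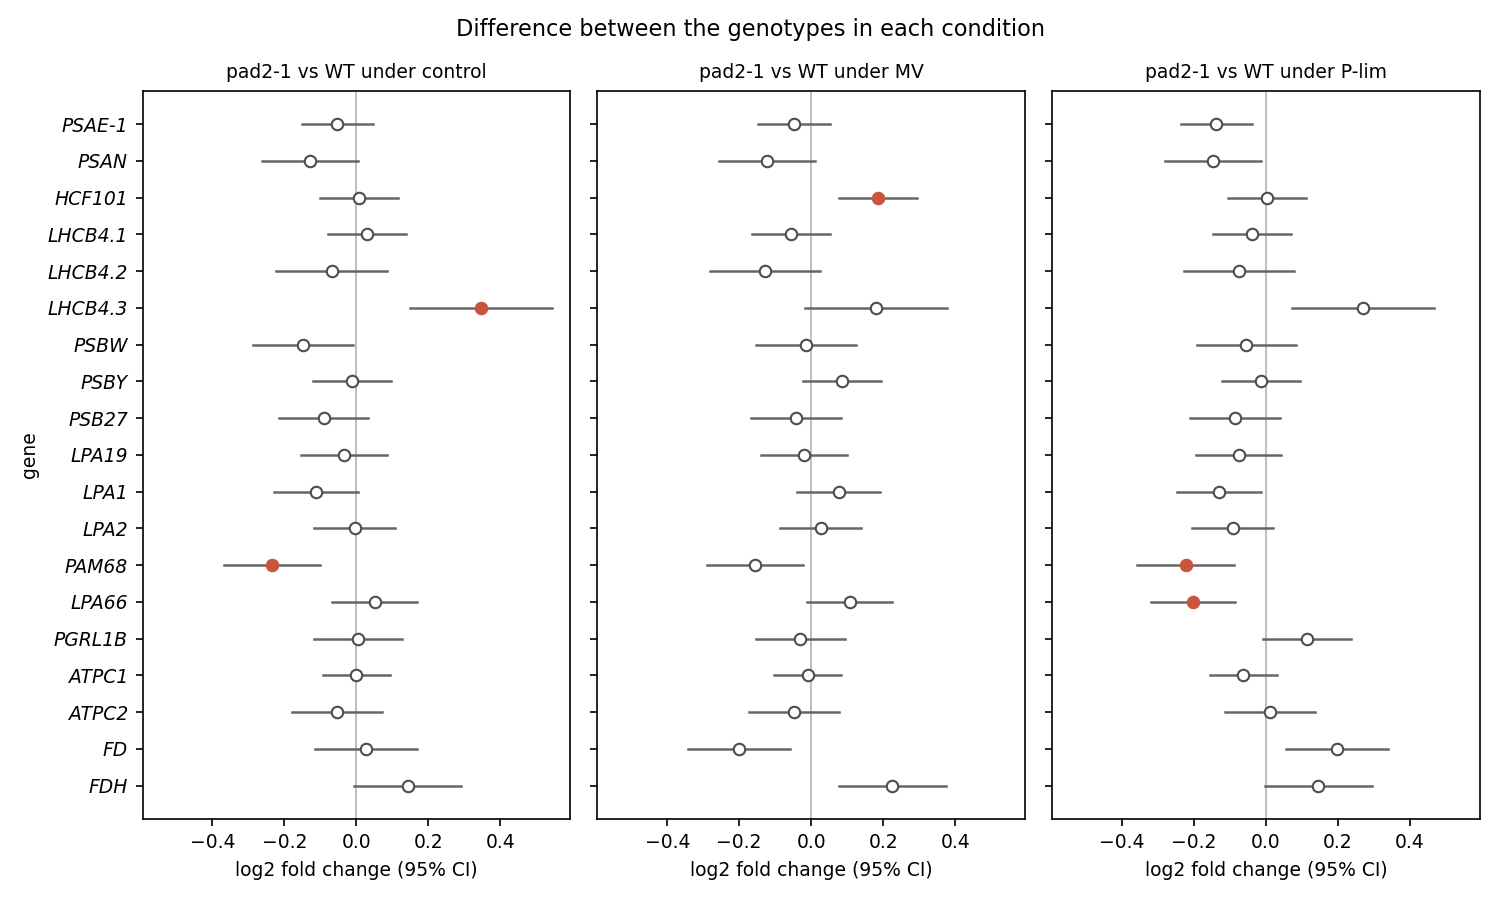
Log2 difference of *pad2-1* minus WT for each of the 19 genes (rows) under the control condition, MV and P-lim (panels), with 95% confidence intervals from limma and 3 arrays a group. Filled points have an adjusted p under 0.05. *LHCB4.3* lies highest and *PAM68* lowest under the control condition, at 0.35 and -0.23.

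Whether the genotypes responded differently was tested with the interaction of genotype and treatment. In limma it called 0 of the 19 genes under MV, against 1.65% of all probe sets, and 0 under P-lim, against 0.725%. At an unadjusted p under 0.05 there were 2 of the 17 photosynthesis genes under MV (*HCF101* at 0.18 and *LPA1* at 0.19) and 1 under P-lim (*LPA66* at -0.25, adjusted p = 0.192).

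The 2 stresses were also set against each other within each genotype. In WT 2 of the 19 genes were called, against 11.2% of all probe sets, and 0 of the 17 photosynthesis genes were among them in limma, with 3 of the 17 at an unadjusted p under 0.05. The nearest were *LHCB4.2*, 0.22 higher under MV (adjusted p = 0.0670), and *PSAN*, 0.17 lower under MV (-0.17, adjusted p = 0.0938). *PSAN* was called without WT MV replicate 1 (adjusted p = 0.0439), and both genes were called with the dimmer probe sets left out (0.0330 and 0.0473). In *pad2-1* 2 of the 19 were called, against 9.5%. *LPA66* was 0.26 higher under MV than under P-lim (SE 0.06, adjusted p = 0.00632), with no overlap of arrays, and held without any 1 array. It was lost when only the arrays of those 2 groups were fitted (adjusted p = 0.0661).

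*FD* (AT4G35900) and *FDH* (AT5G14780), which met the symbol rule only by name, made the remaining calls. *FDH* encodes an enzyme that oxidises formate to carbon dioxide. In WT it read 10.28, 10.38 and 10.29 under the control condition, 10.14, 9.85 and 10.01 under MV, and 10.71, 10.76 and 10.81 under P-lim. In *pad2-1* it read 10.53, 10.50 and 10.35 under the control condition, 10.18, 10.26 and 10.22 under MV, and 10.81, 10.95 and 10.95 under P-lim. In both genotypes the MV arrays lay below and the P-lim arrays above all control arrays.

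Under P-lim *FDH* rose 1.36-fold in both genotypes (log2 0.44, adjusted p = 0.000373 in WT and 0.000305 in *pad2-1* in limma). Under MV it fell by 0.32 in WT (adjusted p = 0.00472) and by 0.24 in *pad2-1* (adjusted p = 0.0449). The last call was lost without any 1 of its 6 arrays but *pad2-1* control replicate 3, with adjusted p of 0.0705 to 0.174. Set against each other, MV was 0.76 below P-lim in WT (-0.76, adjusted p = 1.31e-06) and 0.68 below it in *pad2-1* (-0.68, adjusted p = 5.76e-06). *FD* ranged from 3.92 to 4.53, near the lower quartile of the arrays, where RMA compresses differences. It was 0.46 higher under MV in WT (adjusted p = 0.000126) and 0.23 higher in *pad2-1* (adjusted p = 0.0433), the latter lost without *pad2-1* control replicate 1 (adjusted p = 0.135) or 2 (0.163) or *pad2-1* MV replicate 2 (0.0778) or 3 (0.216). A fit limited to those groups also ended the MV calls in *pad2-1* of *FD* (adjusted p = 0.198) and *FDH* (0.0963), and that of *FD* was lost with the arrays shifted to one median (0.0707) and with a prior that follows the signal (0.0956). In WT it was 0.49 higher under MV than under P-lim (adjusted p = 9.37e-05).

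Around the photosystems, 6 lists of other photosynthesis genes held 220 symbols. Of these, 22 were found by symbol among the probe sets with 1 gene, and only these are called measured here. The others were not looked up under another name, so they are not shown to be absent from the array. The Calvin cycle list had 3 of 30 measured: *RCA* (Rubisco activase), *PRK* (phosphoribulokinase) and *SBPASE* (sedoheptulose-bisphosphatase). None was called in limma in any comparison, with 1 of 33 tests at an unadjusted p under 0.05, and the largest difference was 0.16, for *SBPASE* under MV in WT (adjusted p = 0.0608). It was called with the dimmer probe sets left out (adjusted p = 0.0271), with a prior that follows the signal (0.0129) and without WT MV replicate 2 (0.0202). *HPR* of photorespiration (0 of 11 tests at an unadjusted p under 0.05) and *LIL3:1* of the photoprotection list (2 of 11) gave no call. *LIL3:1*, which helps chlorophyll synthesis at the membrane, was 0.18 lower under MV in WT (-0.18, adjusted p = 0.05008), and was called without WT MV replicate 3 (adjusted p = 0.0183). This change was also called with the dimmer probe sets left out (0.0221), with the arrays shifted to one median (0.0125) and with a prior that follows the signal (0.0137).

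Chlorophyll synthesis and breakdown had 10 of 55 symbols measured. Under MV in WT 3 of the 10 fell, 0 rose and 7 did not pass, beside 13.5% of all probe sets called, with a list median of -0.10 against 0.02 for all probe sets. *HEME1* and *HEME2*, for the uroporphyrinogen decarboxylases of the tetrapyrrole pathway, fell by 0.22 (adjusted p = 0.0111 in limma) and 0.25 (adjusted p = 0.0170). *HEMA2*, for a glutamyl-tRNA reductase that opens the pathway, fell by 0.22 (adjusted p = 0.0466). The *HEME1* call was lost without WT control replicate 1 (adjusted p = 0.0550) or WT MV replicate 2 (0.0623), and that of *HEME2* without WT control replicate 1 (0.0740) or 3 (0.0876) or WT MV replicate 1 (0.0970). That of *HEMA2* was lost without any 1 of the 6 arrays but WT MV replicate 1, with adjusted p of 0.0948 to 0.165, and with the replicate block (0.0507). Under MV in *pad2-1* only *HEMA2* fell among the 10 (by 0.25, adjusted p = 0.0389), a call lost without *pad2-1* control replicate 1 (adjusted p = 0.198) or *pad2-1* MV replicate 2 (0.138) or 3 (0.122). Under P-lim 0 of 10 were called in WT, with 2 at an unadjusted p under 0.05, and in *pad2-1* *CHLI2*, for a subunit of magnesium chelatase, fell by 0.26 (adjusted p = 0.0130), a call lost without *pad2-1* control replicate 3 (adjusted p = 0.0540) or *pad2-1* P-lim replicate 3 (0.0762). All of these chlorophyll calls were also lost in fits limited to the arrays of 1 comparison. Set against P-lim, MV gave 0 of the 10 higher and 2 lower in WT, beside 11.2% of all probe sets called. In *pad2-1* 1 was higher (*CHLI2*) and 1 lower (*HEMA2*), beside 9.5%. Fits limited to the arrays compared lost both *pad2-1* calls (adjusted p = 0.0877 and 0.0800 in limma) and that of *HEME1* in WT (0.104). When 1 array was left out, *CHLI2* was lost in 4 of 6 fits, and *HEMA2* in *pad2-1* and *HEME1* in WT each in 3 of 6. Between the genotypes 0 were called, with 5 of the 10 at an unadjusted p under 0.05 under P-lim. There *CHLI2* was 0.22 lower in *pad2-1* (-0.22, adjusted p = 0.0564 in limma), and was called with the dimmer probe sets left out (0.0250).

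The list of plastid antioxidants had 6 of 37 symbols measured. Under P-lim 1 of the 6 rose in both genotypes, beside 9.21% of all probe sets called in WT and 11.8% in *pad2-1*. Its change was the largest among the 22 measured genes. *SAPX* (AT4G08390), for an ascorbate peroxidase of the chloroplast stroma and mitochondria, read 7.96, 7.73 and 8.15 in WT under the control condition and 9.53, 9.55 and 9.54 under P-lim. In *pad2-1* it read 7.57, 8.23 and 7.97 under the control condition and 9.75, 9.87 and 9.93 under P-lim. The rise was 1.59 in WT (SE 0.16, adjusted p = 2.14e-06 in limma) and 1.93 in *pad2-1* (SE 0.16, adjusted p = 2.49e-07), far outside the spread of the arrays. Under MV it differed by 0.33 in WT (adjusted p = 0.216), and it was lower under MV than under P-lim (-1.27 in WT and -1.91 in *pad2-1*). *TRXF2*, a plastid thioredoxin that activates Calvin cycle enzymes, fell by 0.37 under MV in WT (adjusted p = 0.00172). It was also lower, short of the threshold, under P-lim in WT (-0.23, adjusted p = 0.0550 in limma). The same held in *pad2-1* under MV (-0.20, adjusted p = 0.101) and P-lim (-0.19, adjusted p = 0.0933). With a prior that follows the signal each of these was called (adjusted p = 0.0185, 0.0440 and 0.0424).

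Of 37 regulators of photosynthesis genes only *HYH* (AT3G17609), a bZIP factor close to HY5 that acts in the light response, was found by symbol. It was higher in *pad2-1* than in WT in every condition. It read 4.64, 4.67 and 4.92 in WT and 5.83, 6.02 and 5.41 in *pad2-1* under the control condition. Under MV it read 4.94, 4.46 and 4.82 against 5.44, 5.29 and 5.46, and under P-lim 5.12, 5.15 and 4.73 against 5.85, 5.61 and 5.74. The arrays did not overlap in any condition. The difference was 1.00 under the control condition (SE 0.15, adjusted p = 0.000195 in limma), 0.65 under MV (adjusted p = 0.0123) and 0.74 under P-lim (adjusted p = 0.00520). The call under MV was lost without WT MV replicate 2 (adjusted p = 0.0654) or *pad2-1* MV replicate 3 (0.0561). Neither treatment gave a call of *HYH* against the control, except that MV in *pad2-1* was called without *pad2-1* control replicate 3 (adjusted p = 0.0269).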

How the data were processed

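Aerial parts of WT and *pad2-1* plants were hybridised to 18 Affymetrix ATH1 arrays, 3 for each of 6 groups. The authors deposited log2 values, 1 per probe set and array, from RMA over all arrays (background correction, quantile normalization, summarization). RMA hides shifts shared by most transcripts and compresses signals near background. Array values have no read depth, so the number of arrays limits precision. The manufacturer's 64 control probe sets were left out of 22810. A probe table with the platform annotation named the genes: of 14016 probe sets listed, 503 had several genes and were not named. Locus tags came from the RefSeq gene table (19 of 19 genes found).

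limma 3.58.1 (R 4.3.3) fitted 6 group means to all arrays. P values were adjusted by Benjamini-Hochberg over 22746 probe sets, and intervals came from the moderated variance. All 19 genes found by the symbol rule are reported. Values in every array are given for called genes (up to 2 rises and 2 falls of each complex) and for the photosystem I subunits, and up to 4 genes of each list with the smallest p are named. *PSBW*, *PGRL1B* and *LHCB4.1* were added to those with array values after their values were seen. The members and lists were chosen with earlier results of these data known. The test between genes for the same or a related protein was added after the values were seen. Alternatives are given in the closing section. Of the steps, the limma fit was checked on simulated data, for MV against the control in WT only.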

Additional observations from a re-analysis of the deposited data

How the results depend on the processing

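No result changed direction while called. With a log2 fold change of 1 or more required as well, 0 of the 19 genes were called in each of the 9 comparisons with calls. With fits limited to the arrays compared, the counts became 2 (MV in *pad2-1*), 0 (genotypes under the control condition), 0 (under MV), 1 (under P-lim, where *PAM68* and *LPA66* were lost and *LHCB4.3* was gained) and 1 (MV against P-lim in *pad2-1*), and 1 photosystem I gene was called under P-lim in WT. These fits also lost *LPA1* (adjusted p = 0.0845 in limma) and *PAM68* (0.0829) under MV in WT. With the dimmer 50% of probe sets left out they became 5 (P-lim in *pad2-1*), 2 (genotypes under MV) and 4 (MV against P-lim in *pad2-1*), and 1 photosystem I gene was called under P-lim in WT, under P-lim in *pad2-1*, between the genotypes under P-lim and for MV against P-lim in WT. With trend and robust estimation they became 5 (P-lim in WT), 5 (P-lim in *pad2-1*), 2 (genotypes under MV), 4 (MV against P-lim in WT) and 4 (in *pad2-1*), with 1 photosystem I gene in the same 4 comparisons. With the arrays shifted to one median they became 2 (genotypes under MV) and 4 (MV against P-lim in WT), with 1 photosystem I gene under P-lim in WT and for MV against P-lim in WT, where the median of the 19 genes moved to -0.0885. Without *FD* and *FDH*, an alternative added after the data were seen, the counts became 2 (MV in *pad2-1*), 0 (MV against P-lim in WT) and 1 (in *pad2-1*).

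Leaving out 1 array gave 4 to 6 calls for MV in WT, 2 to 3 for P-lim in WT and 3 to 4 for P-lim in *pad2-1*. It gave 2 to 4 calls for MV in *pad2-1*, and 0 to 2 for the genotypes under the control condition, 0 to 1 under MV and 0 to 1 under P-lim. It also gave 0 to 1 photosystem I genes for MV against P-lim in WT, and medians of -0.0361 to 0.0237 for MV in WT and -0.0443 to 0.0258 for MV against P-lim in WT. Replicate numbers did not pair the arrays: in 45 pairs of equal number the deviations from group means correlated at -0.185 to 0.177, only 2 pairs were over 0.1, and 2 of 18 arrays correlated best with their own number. With the replicate block, 0 genes were called between the genotypes under MV (*HCF101*, adjusted p = 0.0532 in limma) and 1 under P-lim (*LPA66* was lost, adjusted p = 0.0546). With it, *FDH* was lost under MV in *pad2-1* (0.0694) and *HEMA2* under MV in WT (0.0507). No probe set of the 19 genes was of the cross-hybridising kinds, so that alternative changed nothing. The SE of a difference was 0.0442 to 0.0938 for these genes, which limits what 3 arrays a group could show. The shift of arrays moved the median of all probe sets by under 0.05 in every comparison.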
